A study of Mus musculus with 24 samples.

Results

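The blood vessels of the hippocampus were followed through 48 genes that mark brain endothelial cells and mural cells, the pericytes and smooth muscle cells wrapped around them. The genes were taken from a written list by function and make up 48 of the 23787 RefSeq-named genes on the array. The list was chosen with earlier results of these data known. Counts of its genes beside the shares of all probes are therefore a description and no independent test. Each gene was read by its brightest probe. By role, 8 encode barrier junction proteins and transporters, 13 adhesion and cell surface proteins, 12 receptors, ligands and signalling proteins, 5 transcription factors and 10 are mural genes, counted from *Pdgfrb* onward in the list. All 48 were measured.

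The animals were male Swiss-Webster mice aged 12 weeks. Through a dark phase of 12 h they drank water with 100 µg/ml corticosterone and 0.45% hydroxypropyl-β-cyclodextrin, or water with the cyclodextrin vehicle alone as control. Hippocampi were collected in the resting period that followed, during the first, the fifth or the ninth of its hours, from 8 animals per treatment and hour. Each of the 24 two-colour arrays held RNA of 1 control animal in Cy3 and 1 corticosterone-treated animal in Cy5. The dyes were never swapped, so that dye and treatment cannot be told apart within an hour, whereas a constant dye difference cancels in a change of the effect between hours. Slides 1, 2 and 3 held 2, 3 and 3 arrays of the first hour, 2, 3 and 3 of the fifth and 4, 2 and 2 of the ninth. The paper states that each control group was made up of siblings of a treated group, from several litters. Litter did not enter the fit, so that animals counted as independent apart from the shared array. The number of arrays limits the precision of every value.

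Endothelial cells of the brain form a barrier by sealing their borders with tight junctions, by exporting drugs and toxins through pumps in their membrane and by carrying nutrients inward through dedicated transporters. Adhesion molecules on their surface hold the cells to each other and let leukocytes attach, and signals of the vascular endothelial growth factor and angiopoietin families keep the vessels alive and stable. Pericytes and smooth muscle cells surround this tube, support the barrier and set the width of the vessel, and glucocorticoids are known to act on endothelial cells.

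Neuronal markers were measured in this tissue at a mean signal of 26414 for *Rbfox3* and 5184 for *Slc17a7*, and *Gfap* of astrocytes at 4230. Of the 6 choroid plexus markers, *Folr1* had a mean signal of 41.3 and *Otx2* of 35.4, but others were brighter. Summed over all 6, the median was 1396 in control animals at the first hour, with *Kl* the brightest. Among the 48 genes, *Clec14a*, *Erg* and *Tie1* were dim, with mean signals of 38.6, 66.9 and 84.1. Summed over the 48 genes, the median signal of the animals was 77070 in control and 78435 in corticosterone-treated animals at the first hour, 81292 and 80165 at the fifth, and 79822 and 78987 at the ninth, with *Egfl7* the brightest. In whole tissue, fewer cells of a type and less RNA per cell cannot be told apart.

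Endothelial genes moved in both directions after corticosterone. Of the 10 mural genes only *Rgs5* passed the test, at each hour. Of all probes 17.5%, 18.1% and 14.0% passed at the first, the fifth and the ninth hour. A list of 10 is too short to tell its count from these shares. A probe was called where its adjusted p over all probes was under 0.05. At the first hour of the resting period, 18 of the 48 genes displayed significant differences between the treatments, where 17.5% of all 56605 probes did, and 20.1% of the 32033 probes with a mean signal of 50 or more. Of these, 7 were higher and 11 lower with corticosterone, where 8.84% and 8.67% of all probes were. At the fifth hour 14 genes were called, 5 higher and 9 lower, where 18.1% of all probes and 20.1% of the brighter probes passed, 8.62% higher and 9.47% lower. The ninth hour had 13 genes called, 5 higher and 8 lower, where 14.0% of all probes and 14.0% of the brighter probes passed, 7.01% higher and 6.97% lower. The median log2 fold change of the 48 genes was -0.04, -0.02 and 0.02 at these hours. Without slide 1 the count was 9 at the fifth hour and 4 at the ninth, where 6054 and 1868 of the 56605 probes passed, and without slide 3 it was 9 and 8, where 4131 and 4966 did, beside 10239 and 7914 with all slides, so that calls fell over the whole array as well. With slide added to the fit as a block, 18, 13 and 13 genes were called, all of them among those above, and 17.4%, 18.0% and 13.9% of all probes. With the scanner's processed signals 17, 13 and 10 genes were called, where 30.1%, 27.1% and 25.4% of all probes were. The genes' share was then not above that of all probes at the fifth and the ninth hour. Of these genes 7, 5 and 5 were higher and 10, 8 and 5 lower. Of the 17010, 15335 and 14400 probes called, 5581, 5205 and 4377 were higher, and the cause was not tested.

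At 1 or more of the 3 hours 24 of the 48 genes were called, where 29.8% of all probes were, and of these 24, 6 were barrier genes, 7 adhesion genes, 9 signalling genes, 1 a transcription factor and 1 a mural gene. The shares of all probes called were 17.5%, 18.1% and 14.0% at the first, the fifth and the ninth hour. Among the 8 barrier genes, 3, 3 and 4 were called at these hours, and their median log2 fold change was 0.06, 0.06 and 0.10. For the 13 adhesion genes the counts were 7, 6 and 2, with medians of -0.12, -0.02 and -0.02. Adhesion genes thus moved both ways at the first hour, 3 higher and 4 lower. The 2 of 13 called at the ninth hour, both lower, were near the share of all probes. Of the 10 mural genes, *Rgs5* alone was called at each hour, with 2, 3 and 2 genes at an unadjusted p under 0.05 and medians of -0.03, -0.05 and 0.04. Log2 fold changes of the mural genes lay between -0.23 and 0.11 at the first hour, -0.29 and 0.09 at the fifth and -0.25 and 0.19 at the ninth. The genes called at all 3 hours were *Mfsd2a*, *Vcam1*, *Itm2a*, *Flt1*, *Ptprb* and *Rgs5*, 6 of 48, where 5.94% of all probes were called at each hour, and 21 genes were called in none of the 8 comparisons described here, where 68.4% of all probes were called in none. The map of log2 fold changes shows these patterns gene by gene.

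**Figure D1:**
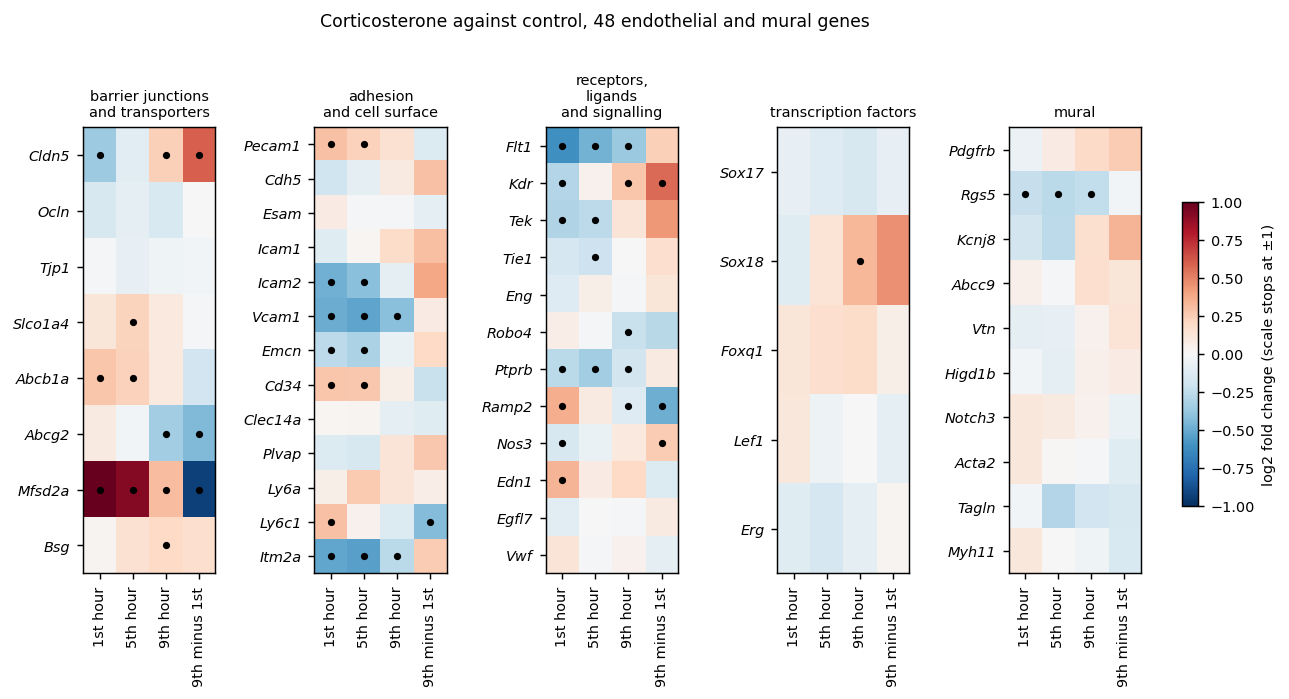
Log2 fold change of corticosterone-treated against control animals for the 48 genes by role, at the first, the fifth and the ninth hour and as the ninth-hour minus the first-hour effect, with dots where limma's adjusted p was under 0.05. The colour scale stops at 1 in both directions, and *Mfsd2a* reaches 1.23 at the first hour.

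*Mfsd2a*, the transporter that carries lysophosphatidylcholine with docosahexaenoic acid into the brain and holds back vesicle traffic across the endothelium, had the highest log2 fold change of the 48 genes at the first and the fifth hour. In the first hour its signal intensity ran from 1296 to 1678 in control animals, with a median of 1505, and from 2955 to 4255 in corticosterone-treated animals, with a median of 3607. Every treated animal lay above every control animal. The log2 fold change was 1.23 ± 0.07 (SE), or 2.35-fold, higher on 8 of 8 arrays (adjusted p 1.79e-18), with means of 1.11, 1.28 and 1.26 within slides 1, 2 and 3. By the fifth hour the signals were 1182 to 1509 (median 1326) in control and 1915 to 3273 (median 2593) in treated animals. The groups were again apart, with a log2 fold change of 0.92 ± 0.07 on 8 of 8 arrays (adjusted p 1.32e-13) and 1.08, 0.83 and 0.89 within the slides. The ninth hour gave 1212 to 1589 (median 1383) and 1488 to 1904 (median 1746). Here the groups overlapped, and the log2 fold change was 0.31 ± 0.07, higher on 8 of 8 arrays (adjusted p 0.00232), with 0.32, 0.46 and 0.12 within the slides. Without slide 1 it was 0.29 and no longer passed.

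The promoters of *Mfsd2a*, *Cldn5*, *Kdr* and *Abcb1a* are shown because the effect of corticosterone on the first of these genes was large and the others were called in opposite directions or at different hours. Each runs from 250 bases before to 50 bases after the start of the gene and comes from RefSeq on GRCm38.p6, where 29 of the 48 genes had an entry. Capitals mark AGAACA, the hexamer of glucocorticoid response elements, and GGAA, the core of ETS factor sites, on either strand, so that TTCC is GGAA on the other one. These motifs and promoters were chosen after the values and other motifs had been seen, and a match is only a description. AGAACA occurred in 6233 of 32851 promoters and in 7 of the 29 (*Abcb1a*, *Acta2*, *Egfl7*, *Erg*, *Lef1*, *Tek* and *Vtn*). GGAA occurred in 96.0% and in 27 of the 29. The full palindrome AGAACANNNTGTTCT occurred in 0.00913% of promoters and in 0 of the 29, and ATCAAAG, the site of TCF and LEF factors, in 3.73% and in 1, that of *Egfl7*. *Mfsd2a* (chr4:122961139-122961438, minus strand) and *Kdr* (chr5:75978406-75978705, minus strand) held 3 and 5 copies of GGAA, *Abcb1a* (chr5:8566841-8567140, plus strand) 5 and a copy of AGAACA near its end, and *Cldn5* (chr16:18776597-18776896, plus strand) neither motif.
Mfsd2a: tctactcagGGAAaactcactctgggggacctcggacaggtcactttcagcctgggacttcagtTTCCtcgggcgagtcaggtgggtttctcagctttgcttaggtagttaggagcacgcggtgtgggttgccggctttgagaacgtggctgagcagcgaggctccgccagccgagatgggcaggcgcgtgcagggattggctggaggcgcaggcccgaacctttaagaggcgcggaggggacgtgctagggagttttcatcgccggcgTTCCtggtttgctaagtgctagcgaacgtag
Cldn5: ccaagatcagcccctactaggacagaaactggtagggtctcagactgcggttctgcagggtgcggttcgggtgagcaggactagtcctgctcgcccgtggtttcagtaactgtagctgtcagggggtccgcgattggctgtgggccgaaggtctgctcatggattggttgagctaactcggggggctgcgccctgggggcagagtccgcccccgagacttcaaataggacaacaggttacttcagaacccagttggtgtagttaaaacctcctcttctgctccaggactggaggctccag
Kdr: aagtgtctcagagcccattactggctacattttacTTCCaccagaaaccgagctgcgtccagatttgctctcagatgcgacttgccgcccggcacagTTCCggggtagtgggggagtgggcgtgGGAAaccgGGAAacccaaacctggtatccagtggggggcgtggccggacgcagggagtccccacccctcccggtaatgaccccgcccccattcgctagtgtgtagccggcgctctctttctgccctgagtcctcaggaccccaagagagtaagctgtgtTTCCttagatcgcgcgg
Abcb1a: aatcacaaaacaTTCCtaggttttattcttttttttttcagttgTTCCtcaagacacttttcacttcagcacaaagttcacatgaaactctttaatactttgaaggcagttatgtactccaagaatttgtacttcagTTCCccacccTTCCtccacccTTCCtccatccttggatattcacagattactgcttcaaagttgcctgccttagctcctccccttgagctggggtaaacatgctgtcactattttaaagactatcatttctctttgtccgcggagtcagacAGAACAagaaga

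*Cldn5* encodes claudin-5, the main tight junction protein of brain endothelium, and its difference between treatments turned round over the resting period. At the first hour its signal ran from 2645 to 3761 in control animals (median 3133) and from 1916 to 2939 in corticosterone-treated animals (median 2333). The ranges overlapped, and the gene was lower with corticosterone on 7 of 8 arrays (log2 fold change -0.36 ± 0.07, adjusted p 5.44e-05), with -0.54, -0.28 and -0.33 within slides 1, 2 and 3. In the fifth hour, with 3060 to 3719 (median 3479) against 2742 to 3486 (median 3184), the difference of -0.11 ± 0.07 did not pass (lower on 7 of 8 arrays, adjusted p 0.232). For the ninth hour the signals were 1902 to 2853 (median 2536) in control and 2696 to 3271 (median 2886) in treated animals. The ranges overlapped at their edges, and *Cldn5* was now higher with corticosterone on 7 of 8 arrays (log2 fold change 0.24 ± 0.07, adjusted p 0.00810), with 0.30, 0.07 and 0.29 within the slides. Without slide 1 the value at the ninth hour was 0.18 and no longer passed. The other junction genes, *Ocln* and *Tjp1*, were called at no hour.

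Of the efflux pumps, which return drugs and other molecules to the blood, *Abcb1a* (P-glycoprotein) and *Abcg2* behaved differently. *Abcb1a* had signals of 693 to 865 (median 740) in control and 810 to 1013 (median 924) in corticosterone-treated animals at the first hour. The groups overlapped in part, and it was higher on 8 of 8 arrays (log2 fold change 0.28 ± 0.07, adjusted p 0.00114), with 0.33, 0.28 and 0.26 within slides 1, 2 and 3. At the fifth hour it was also higher, on 7 of 8 arrays (0.23 ± 0.07, adjusted p 0.00788), but the value was 0.17 without slide 1 and 0.20 without slide 2, and neither passed, nor did 0.23 in a separate fit for each hour. The ninth hour's 0.10 ± 0.07 did not pass (adjusted p 0.331), and the change from the first hour, -0.19, did not pass either (adjusted p 0.648). *Abcg2* showed no called difference at the first hour (0.09 ± 0.06, adjusted p 0.312, higher on 4 of 8 arrays) or the fifth (-0.03 ± 0.06, adjusted p 0.782, higher on 4 of 8). In the ninth hour its signals were 1889 to 2394 (median 2225) in control and 1608 to 1885 (median 1664) in treated animals. Every treated animal lay below every control animal, with a log2 fold change of -0.35 ± 0.06, lower on 8 of 8 arrays (adjusted p 5.66e-05) and -0.29, -0.29 and -0.53 within the slides. Named after their values were seen, *Slco1a4*, an organic anion transporter, was higher at the fifth hour (0.22 ± 0.06, 8 of 8 arrays, adjusted p 0.00947, but 0.19 and not called without slide 1), and *Bsg*, the basigin subunit of monocarboxylate transporters, at the ninth (0.20 ± 0.07, 6 of 8 arrays, adjusted p 0.0318, not called without slide 1, 2 or 3, at 0.26, 0.21 and 0.15, and called in 11 of 16 alternatives).

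Among the adhesion genes, those that were lower with corticosterone included the leukocyte ligands *Vcam1* and *Icam2*. *Vcam1*, the vascular cell adhesion molecule that binds integrins of leukocytes, had signals of 1698 to 2223 (median 1803) in control and 1150 to 1427 (median 1301) in treated animals at the first hour, 1591 to 1997 (median 1805) and 1092 to 1415 (median 1224) at the fifth, and 1688 to 2155 (median 2003) and 1318 to 1656 (median 1458) at the ninth. The treatments did not overlap at any of the hours, and 8 of 8 arrays were lower at each. The log2 fold changes were -0.50 ± 0.06 (adjusted p 3.19e-09), -0.53 ± 0.06 (1.78e-09) and -0.42 ± 0.06 (4.61e-07). Within slides 1, 2 and 3 they were -0.57, -0.46 and -0.50 at the first hour, -0.47, -0.52 and -0.57 at the fifth and -0.39, -0.44 and -0.47 at the ninth. Between the first and the ninth hour the change of 0.08 ± 0.08 did not pass (adjusted p 0.983). A second, dimmer probe of *Vcam1* gave 0.01, -0.32 and -0.16 and was called at the fifth hour only. *Icam2*, which binds leukocyte integrins on resting endothelium, had 452 to 633 (median 561) against 322 to 496 (median 387) at the first hour. The ranges overlapped, with all 8 arrays lower (log2 fold change -0.48 ± 0.09, adjusted p 1.38e-04) and -0.45, -0.47 and -0.51 within the slides.

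At the fifth hour *Icam2* was lower on 6 of 8 arrays (-0.42 ± 0.09, adjusted p 5.60e-04), with -0.75, -0.09 and -0.54 within slides 1, 2 and 3, and it no longer passed without slide 1 (-0.31) or slide 3 (-0.35). The difference at the ninth hour, -0.09 ± 0.09, did not pass (lower on 7 of 8 arrays, adjusted p 0.543), nor did the change from the first hour, 0.39 ± 0.13 (adjusted p 0.224). *Icam1*, the inducible counterpart in leukocyte adhesion, was not called at any hour. Its control signals were 125 to 181 (median 143) at the first hour against 106 to 171 (median 132) with corticosterone. The groups overlapped throughout, with log2 fold changes of -0.12 ± 0.09, 0.02 ± 0.09 and 0.18 ± 0.09 at the 3 hours, all of which moved with the slides left out. Without slides 1, 2 and 3 in turn they were -0.03, -0.18 and -0.17 at the first hour, 0.01, -0.02 and 0.09 at the fifth, and 0.07, 0.21 and 0.22 at the ninth.

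*Itm2a*, an integral membrane protein gene of endothelium, was lower on 8 of 8 arrays at the first hour (log2 fold change -0.52 ± 0.08, adjusted p 5.46e-06) and the fifth (-0.54 ± 0.08, 2.32e-06) and on 6 of 8 at the ninth (-0.27 ± 0.08, 0.0163). Its signals at the first hour were 2527 to 3678 (median 3151) in control and 1862 to 2692 (median 2083) in treated animals. The ranges met at their edges, and within slides 1, 2 and 3 the differences were -0.65, -0.42 and -0.52 at the first hour, -0.56, -0.34 and -0.73 at the fifth and -0.16, -0.31 and -0.45 at the ninth. Without slide 1 the value at the ninth hour was -0.38 and without slide 3 it was -0.21, and neither passed. *Emcn*, the sialomucin endomucin of capillaries and veins, had 479 to 618 (median 545) against 352 to 540 (median 437) at the fifth hour. These overlapped, and the gene was lower on 8 of 8 arrays (-0.32 ± 0.07, adjusted p 2.64e-04), with -0.25, -0.35 and -0.33 within the slides. It was also lower at the first hour (-0.26 ± 0.07, 7 of 8 arrays, adjusted p 0.00274), although not without slide 3 (-0.23), and was not called at the ninth (-0.07, adjusted p 0.531).

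In contrast to these, *Cd34*, *Pecam1* and *Ly6c1* were higher with corticosterone at the first hour. *Cd34*, another sialomucin, had signals of 4722 to 6467 (median 5564) in control and 5561 to 7426 (median 6795) in treated animals. The ranges overlapped, and it was higher on 8 of 8 arrays (log2 fold change 0.28 ± 0.06, adjusted p 1.57e-04), with 0.31, 0.24 and 0.29 within slides 1, 2 and 3. At the fifth hour it was again higher on 8 of 8 (0.27 ± 0.06, adjusted p 2.60e-04, with 0.30, 0.25 and 0.25 within the slides), and at the ninth 0.06 ± 0.06 did not pass (adjusted p 0.494). *Pecam1*, which joins endothelial cells at their contacts, had 130 to 162 (median 146) against 157 to 209 (median 172) at the first hour. The groups overlapped only at their edges, and all 8 arrays were higher (0.29 ± 0.07, adjusted p 0.00232), with 0.20, 0.37 and 0.28 within the slides. Without slide 2 the value was 0.25 and not called. For the fifth hour *Pecam1* gave 0.23 ± 0.07 on 7 of 8 arrays (adjusted p 0.0149), with 0.39, -0.01 and 0.37 within the slides, 0.38 without slide 2, and no call without slide 1 (0.18) or slide 3 (0.15) or in a separate fit for each hour (0.23).

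*Ly6c1*, a surface protein that labels most endothelial cells of the mouse brain, had signals of 5061 to 7075 (median 5609) in control and 5595 to 8358 (median 7265) in treated animals at the first hour. These ranges overlapped, and 7 of 8 arrays were higher (log2 fold change 0.29 ± 0.07, adjusted p 0.00182), with 0.37, 0.29 and 0.23 within slides 1, 2 and 3. The differences at the fifth hour (0.04, adjusted p 0.735, higher on 5 of 8) and the ninth (-0.14 ± 0.07, adjusted p 0.158, lower on 7 of 8) did not pass. *Cdh5*, the cadherin of endothelial adherens junctions, was not called at any hour, with -0.20 ± 0.10, -0.10 ± 0.10 and 0.09 ± 0.10 (adjusted p 0.118, 0.483 and 0.560). Its signals at the first hour, 316 to 457 (median 336) and 287 to 355 (median 302), overlapped. Without slide 3 the value at the fifth hour was 0.00, and without slide 1 that at the ninth was -0.07. *Esam*, *Clec14a*, *Plvap* and *Ly6a* were called at no hour either.

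Receptors for vascular endothelial growth factor differed between *Flt1* and *Kdr*. *Flt1*, the high-affinity receptor that also exists as a soluble trap, had signals of 5170 to 6881 (median 5709) in control and 3181 to 4683 (median 3820) in corticosterone-treated animals at the first hour. Every treated animal lay below every control animal, and the log2 fold change was -0.61 ± 0.07 (8 of 8 arrays lower, adjusted p 1.47e-08). It was also lower on 8 of 8 arrays at the fifth hour (-0.47 ± 0.07, adjusted p 4.85e-06) and the ninth (-0.37 ± 0.07, adjusted p 3.12e-04), where the ranges overlapped. Within slides 1, 2 and 3 the differences were -0.58, -0.68 and -0.55, then -0.58, -0.24 and -0.61, then -0.25, -0.43 and -0.54. Between the first hour and the ninth, the change of 0.24 ± 0.10 did not pass (adjusted p 0.516). A pair of dimmer *Flt1* probes for another transcript disagreed with the brightest one, with 0.17, 0.17 and 0.12 for the first and 0.12, 0.13 and 0.19 for the second, none of them called.

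*Kdr*, the receptor that carries most of the growth signal, had signals of 893 to 1320 (median 1051) in control and 711 to 1229 (median 876) in treated animals at the first hour, 1036 to 1446 (median 1179) and 1010 to 1556 (median 1180) at the fifth, and 860 to 1087 (median 999) and 1071 to 1379 (median 1210) at the ninth. The ranges overlapped at each hour, but the treated animals lay mostly below the control animals at the first hour and mostly above them at the ninth. It was lower at the first hour on 6 of 8 arrays (log2 fold change -0.29 ± 0.08, adjusted p 0.00616; -0.25, -0.25 and -0.35 within slides 1, 2 and 3), without a call at the fifth (0.04 ± 0.08, adjusted p 0.748, lower on 4 of 8), and higher at the ninth on 7 of 8 (0.28 ± 0.08, adjusted p 0.00843; 0.45, 0.11 and 0.13). The first of these was -0.25 without slide 3 and the last 0.12 without slide 1, and neither passed. A second *Kdr* probe, with a mean signal of 17.6, disagreed at the ninth hour, with -0.63, -0.41 and -0.73, called at the first and the ninth hour.

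*Ramp2*, the partner of the calcitonin-receptor-like receptor that makes it a receptor for adrenomedullin, had signals of 3139 to 3720 (median 3380) in control and 3932 to 5062 (median 4439) in treated animals at the first hour. No treated animal overlapped with a control animal, and all 8 arrays were higher (log2 fold change 0.36 ± 0.05, adjusted p 1.62e-08), with 0.23, 0.45 and 0.35 within slides 1, 2 and 3. At the fifth hour the value was 0.09 ± 0.05 (adjusted p 0.123, higher on 6 of 8). By the ninth, with 3756 to 4440 (median 3882) against 3326 to 4122 (median 3631), the overlapping groups gave a lower signal with corticosterone on 7 of 8 arrays (-0.13 ± 0.05, adjusted p 0.0307), which no longer passed without slide 1 (-0.10) or slide 3 (-0.11) and was called in 11 of 16 alternatives. *Nos3*, the endothelial nitric oxide synthase, had 1225 to 1346 (median 1268) against 1021 to 1308 (median 1165) at the first hour. The groups overlapped, and 7 of 8 arrays were lower (-0.16 ± 0.05, adjusted p 0.0129; -0.12, -0.09 and -0.24 within the slides), but not past the threshold without slide 1 (-0.17) or slide 3 (-0.10) or with the scanner's processed signals (-0.16). *Nos3* was not called at the fifth hour (-0.07, adjusted p 0.329) or the ninth (0.10 ± 0.05, adjusted p 0.142).

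*Ptprb*, the phosphatase that restrains the angiopoietin receptor, had signals of 3324 to 4101 (median 3768) in control and 2593 to 3223 (median 2993) in treated animals at the fifth hour. The groups did not overlap, and 8 of 8 arrays were lower (log2 fold change -0.35 ± 0.06, adjusted p 3.52e-06; -0.50, -0.18 and -0.43 within slides 1, 2 and 3). It was also lower at the first hour (-0.27 ± 0.06, 8 of 8 arrays, adjusted p 1.90e-04) and the ninth (-0.18 ± 0.06, 7 of 8, adjusted p 0.0139), the last being -0.14 and not called without slide 3, -0.19 and not called with the scanner's processed signals, and -0.28 without slide 1. Of the receptors of that family, *Tie1* was called at the fifth hour (-0.21 ± 0.08, lower on 6 of 8 arrays, adjusted p 0.0481), though not without slide 2 (-0.21) or slide 3 (-0.13) or with slide as a block (-0.21), in 5 of 16 alternatives in all, and not at the other two hours, and the value was -0.12 with an offset of 50. *Tek*, named after its values were seen, was lower at the first hour (-0.30 ± 0.09, 6 of 8 arrays, adjusted p 0.0225; -0.12 without slide 3, -0.18 in the authors' table and -0.30 in a separate fit for each hour, none of them called) and the fifth (-0.26 ± 0.09, 7 of 8, adjusted p 0.0412, not called without slide 1, 2 or 3, at -0.24, -0.25 and -0.29, -0.16 in the authors' table, and called in 10 of 16 alternatives). The ligand gene *Edn1*, endothelin-1, was higher at the first hour (0.34 ± 0.11, 7 of 8, adjusted p 0.0194, not called without slide 2, at 0.39, or slide 3, at 0.29, or in a separate fit for each hour, at 0.34) and the guidance receptor *Robo4* lower at the ninth (-0.22 ± 0.06, 7 of 8, adjusted p 0.00586; -0.21 without slide 1 and -0.19 with processed signals, neither called), both also named after their values were seen.

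Of the transcription factors of endothelial identity, *Sox18* passed the test at the ninth hour and the other 4 at none, with 0, 1 and 3 of the 5 at an unadjusted p under 0.05 in limma at the 3 hours. At the ninth hour *Sox18* had signals of 342 to 562 (median 404) in control and 455 to 643 (median 530) in corticosterone-treated animals. The groups overlapped, and it was higher on 8 of 8 arrays (log2 fold change 0.33 ± 0.09, adjusted p 0.00675), with 0.31, 0.39 and 0.32 within slides 1, 2 and 3. It was not called without slide 1 (0.36) or slide 3 (0.33), each of which leaves fewer arrays. At the first hour the value was -0.12 ± 0.09 (adjusted p 0.340, higher on 3 of 8), and the change between them, 0.46 ± 0.13, did not pass (adjusted p 0.0584).

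Of the mural genes, *Rgs5*, the regulator of G-protein signalling that marks pericytes, was lower with corticosterone at each hour. Its signals were 1248 to 1620 (median 1303) in control and 859 to 1386 (median 1178) in treated animals at the first hour, 1224 to 1803 (median 1406) and 927 to 1397 (median 1159) at the fifth, and 1036 to 1614 (median 1454) and 958 to 1366 (median 1147) at the ninth. The ranges overlapped at all 3 hours, and 7, 8 and 7 of 8 arrays were lower. Log2 fold changes were -0.23 ± 0.08 (adjusted p 0.0291), -0.27 ± 0.08 (0.00769) and -0.25 ± 0.08 (0.0178), with -0.13, -0.34 and -0.18, then -0.27, -0.26 and -0.29, then -0.28, -0.17 and -0.28 within slides 1, 2 and 3. These calls were lost without slide 2 (-0.16) or slide 3 (-0.26) at the first hour, without slide 2 (-0.28) or slide 3 (-0.26) at the fifth, and without slide 1, 2 or 3 (-0.22, -0.28 and -0.24) at the ninth. A change of -0.03 ± 0.11 between the first and the ninth hour did not pass.

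*Pdgfrb*, the platelet-derived growth factor receptor that keeps pericytes on the vessel, was called at no hour. Its signals ran from 811 to 958 (median 879) in control and from 654 to 951 (median 898) in treated animals at the first hour, 544 to 1003 (median 967) and 511 to 1192 (median 975) at the fifth, and 806 to 992 (median 837) and 849 to 1114 (median 1008) at the ninth. The groups overlapped at each hour, with log2 fold changes of -0.06 ± 0.09, 0.08 ± 0.09 and 0.19 ± 0.09 (adjusted p 0.701, 0.557 and 0.132; higher on 4, 5 and 7 of 8 arrays). The first value was 0.04 without slide 3 and the second -0.01 without slide 1. *Acta2*, the smooth muscle actin, had 3813 to 4673 (median 4127) against 3435 to 5384 (median 4618) at the first hour. It overlapped at all hours and was not called, with 0.11 ± 0.09, 0.01 ± 0.09 and -0.01 ± 0.09 (adjusted p 0.386, 0.933 and 0.976), the last 2 being -0.08 without slide 3 and 0.18 without slide 1. Summed over the 10 mural genes, the median signal was 14746 in control and 14886 in treated animals at the first hour, 15801 and 15350 at the fifth and 16095 and 15803 at the ninth. The plot of single animals shows *Rgs5* and *Pdgfrb* beside 6 endothelial genes.

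**Figure D2:**
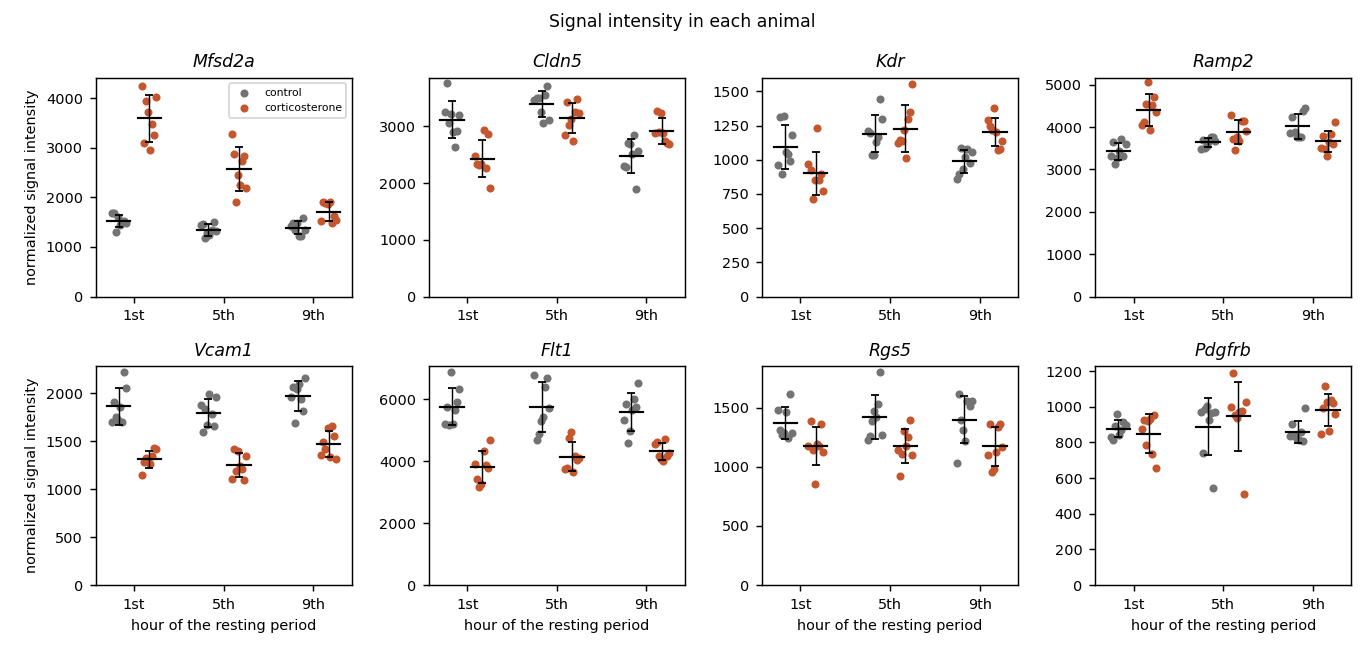
Normalized signal intensity of 8 genes in each control and each corticosterone-treated animal during the first, the fifth and the ninth hour after the dark phase, with the mean as a bar and the SD as whiskers (n = 8 per group). *Mfsd2a* in treated animals goes from a median of 3607 to 1746, *Vcam1* is lower with corticosterone at each hour, and *Pdgfrb* overlaps at each hour.

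Whether the effect of corticosterone itself changed over the resting period was tested as the difference between the log2 fold changes of the hours. Between the first and the ninth hour it changed for 7 of the 48 genes, where 0.827% of all probes passed, 0.253% with a higher and 0.574% with a lower effect. With only the brighter probes tested, 9 genes were called, where 1.97% of those probes passed. Of the 7, *Cldn5*, *Kdr* and *Nos3* moved up and *Mfsd2a*, *Abcg2*, *Ly6c1* and *Ramp2* down. By role 3 were barrier, 1 adhesion and 3 signalling genes. Among the mural genes 0 were called in limma, with 2 at an unadjusted p under 0.05 and changes between -0.16 and 0.34, and among the transcription factors 0, with 1 unadjusted. With slide as a block 8 genes were called, these 7 among them, 4 with a higher and 4 with a lower effect, where 0.786% of all probes passed. Without slide 1 the count of the 48 was 3, where 0.217% of all probes passed, and without slide 3 it was 4, where 0.311% did. From the first to the fifth hour 0 genes were called in limma and 7 had an unadjusted p under 0.05, where 0.0389% of all probes passed. With slide as a block the count was 1, *Ramp2*, where 0.0442% of all probes passed. The count was also 1 among brighter probes only, where 0.137% of those probes passed. From the fifth to the ninth it was 1 gene, *Mfsd2a*, where 0.0830% of all probes passed, with 0, 2 and 0 called without slides 1, 2 and 3, where 0%, 0.0954% and 0.00707% of all probes passed.

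The effect on *Mfsd2a* fell by 0.93 ± 0.10 (log2) between the first and the ninth hour (adjusted p 9.54e-09), with -0.80, -0.82 and -1.13 within slides 1, 2 and 3 and -0.93 with slide as a block. From the fifth to the ninth it fell by 0.61 ± 0.10 (adjusted p 9.99e-04), which was not called without slide 1 (-0.57) or slide 3 (-0.56). Lower on 7 of 8 arrays at the first hour and higher on 7 of 8 at the ninth, *Cldn5* changed by 0.60 ± 0.10 (adjusted p 2.53e-05), with 0.84, 0.35 and 0.62 within the slides and 0.60 with slide as a block, but 0.48 and no call without slide 1. *Kdr*, lower on 6 and then higher on 7 arrays, changed by 0.57 ± 0.11 (adjusted p 0.00122; 0.70, 0.36 and 0.48 within the slides, 0.57 with the block, 0.42 without slide 1 and not called). Both genes were thus called in opposite directions at the start and the end of the resting period. For *Ramp2*, higher on 8 and then lower on 7 arrays, the change was -0.49 ± 0.06 (adjusted p 2.79e-07; -0.39, -0.46 and -0.55 within the slides, -0.49 with the block), and it was also called without slide 1, without slide 2 and without slide 3. A second *Ramp2* probe gave the same change of -0.49 (adjusted p 0.00470).

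*Abcg2*, higher on 4 of 8 arrays at the first hour and on 0 of 8 at the ninth, changed by -0.44 ± 0.09 (adjusted p 0.00151; -0.27, -0.39 and -0.68 within slides 1, 2 and 3, -0.44 with slide as a block), which was not called without slide 3 (-0.34) or with the scanner's processed signals (-0.44). The change of *Ly6c1*, higher on 7 and then lower on 7 arrays, was -0.43 ± 0.10 (adjusted p 0.00913; -0.52, -0.35 and -0.42 within the slides, -0.43 with the block), not called without slide 1 (-0.39) or slide 3 (-0.45) or with processed signals (-0.44). Its second probe gave -0.50 (adjusted p 0.00166). *Nos3*, lower on 7 and then higher on 6 arrays, changed by 0.25 ± 0.07 (adjusted p 0.0349; 0.29, 0.09 and 0.30 within the slides, 0.25 with the block), and was called in 9 of 15 alternatives, not without slide 1 (0.20) or slide 3 (0.21). Genes called at the first but not the ninth hour, such as *Icam2*, *Emcn*, *Cd34* and *Pecam1*, did not pass this test (0.39, 0.20, -0.22 and -0.14), so that a different effect at these hours was not shown. The plot of log ratios shows the arrays of each slide for the 7 genes.

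**Figure D3:**
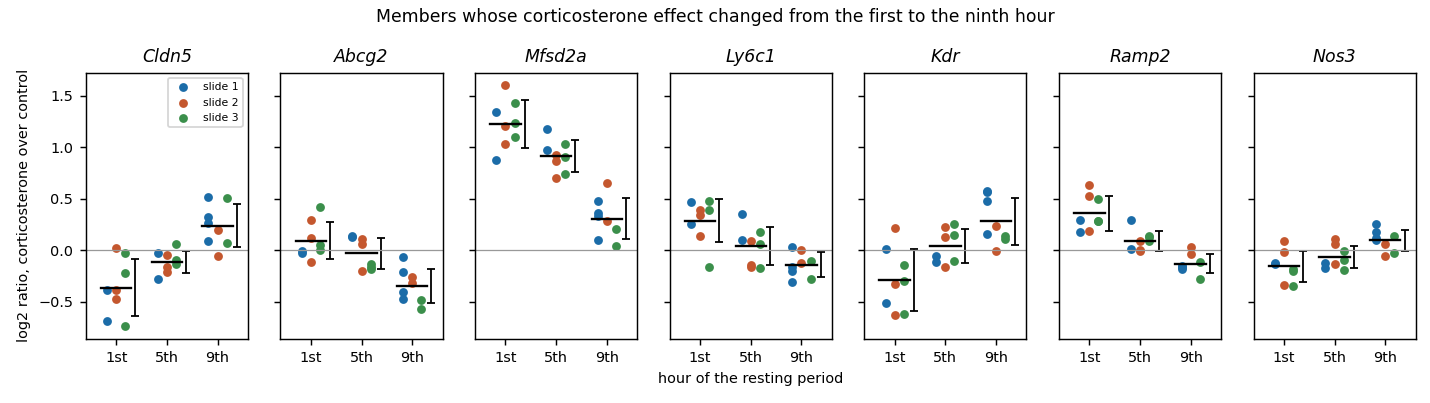
Log2 ratio of corticosterone-treated over control signal on each array, coloured by slide, for the 7 genes whose effect changed between the first and the ninth hour. Lines are means and whiskers the SD (n = 8 arrays per hour), and *Cldn5*, *Kdr* and *Nos3* rise across the line of no difference while *Ramp2* and *Ly6c1* fall across it.

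The same hours were also compared within each treatment, which keeps the dye constant but sets different arrays, and slides in unequal numbers, against each other. These comparisons share their samples with those above. In control animals 3 genes differed between the ninth and the first hour, where 0.537% of all probes did: *Cldn5* was lower and *Tie1* and *Ramp2* were higher. No gene of the adhesion or mural groups or of the transcription factors passed in limma, with 3, 1 and 1 at an unadjusted p under 0.05. With only the brighter probes tested, 3 genes were called, where 0.971% of those probes passed. Without slides 1, 2 and 3 the count of the 48 was 0, 1 and 0, where 0.00883%, 0.401% and 0.238% of all probes passed. With the scanner's processed signals it was 0, where 0.0300% of all probes passed, the values being -0.43, 0.38 and 0.15 for *Cldn5*, *Tie1* and *Ramp2*. *Cldn5* had signals of 2645 to 3761 (median 3133) at the first and 1902 to 2853 (median 2536) at the ninth hour. The hours overlapped, and the log2 difference was -0.34 ± 0.08 (adjusted p 0.0202; -0.49, -0.19 and -0.40 within the slides, -0.36 with slide as a block), not called without slide 1, 2 or 3 (-0.30, -0.39 and -0.34) and called in 9 of 13 alternatives. *Ramp2*, with control signals of 3139 to 3720 and 3756 to 4440, did not overlap between these hours (0.23 ± 0.05, adjusted p 0.0169; 0.18, 0.20 and 0.31 within the slides, 0.24 with the block), but was not called without slide 1, 2 or 3 either (0.26, 0.22 and 0.21) and was called in 9 of 13 alternatives.

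*Tie1*, an orphan receptor that works with the angiopoietin receptor, had control signals of 57.2 to 83.2 (median 75.7) at the first and 84.1 to 118 (median 97.6) at the ninth hour, and treated signals of 55.4 to 76.1 (median 65.7) and 79.2 to 116 (median 102). In neither treatment did the hours overlap. The log2 difference was 0.44 ± 0.09 in control animals (adjusted p 0.00323; 0.44, 0.15 and 0.70 within slides 1, 2 and 3, 0.42 with slide as a block; not called without slide 1, at 0.43, or slide 3, at 0.31, or with processed signals, at 0.38). In treated animals it was 0.61 ± 0.09 (adjusted p 2.71e-06; 0.62, 0.34 and 0.72 within the slides, 0.59 with the block), and the change of the effect, 0.17, did not pass (adjusted p 0.882). With an offset of 50 in place of 0 the differences of this dim gene were 0.28 and 0.38.

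Corticosterone-treated animals differed between the ninth and the first hour at 15 of the 48 genes, where 4.02% of all probes did, with 11 higher and 4 lower at the ninth hour. Of these, 5 were barrier, 2 adhesion, 5 signalling and 2 mural genes and 1 was a transcription factor. With slide as a block 14 genes were called, 9 higher and 5 lower, 13 of them among these 15, where 3.70% of all probes passed. Without slide 1 the count was 7, where 1.33% of all probes passed. With only the brighter probes tested, 16 genes were called, where 7.17% of those probes passed. With the scanner's processed signals 0.938% of all probes passed, and of the 15 genes *Mfsd2a*, *Abcg2*, *Icam2*, *Tie1* and *Sox18* were called and the other 10 were not. *Mfsd2a* went from 2955 to 4255 (median 3607) at the first hour to 1488 to 1904 (median 1746) at the ninth. The hours did not overlap, and the log2 difference was -1.06 ± 0.09 (adjusted p 3.03e-13; -1.03, -1.06 and -1.17 within slides 1, 2 and 3, -1.10 with slide as a block), beside -0.14 ± 0.09 in control animals (adjusted p 0.588). *Abcg2* was also lower at the ninth hour, with no overlap (-0.41 ± 0.07, adjusted p 7.45e-05; -0.26, -0.38 and -0.57 within the slides, -0.41 with the block), beside 0.03 in control animals (adjusted p 0.947).

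*Sox18* in treated animals had signals of 272 to 436 (median 315) at the first and 455 to 643 (median 530) at the ninth hour. These were apart, with a log2 difference of 0.72 ± 0.11 (adjusted p 2.13e-06; 0.92, 0.46 and 0.62 within slides 1, 2 and 3, 0.66 with slide as a block), beside 0.27 in control animals (adjusted p 0.274). *Icam2* went from 322 to 496 (median 387) to 538 to 695 (median 633). Here too the hours did not overlap, with 0.68 ± 0.11 (adjusted p 1.49e-05; 0.73, 0.48 and 0.78 within the slides, 0.69 with the block), beside 0.29 in control animals (adjusted p 0.234). *Kdr* was higher at the ninth hour by 0.43 ± 0.09 (adjusted p 0.00126; 0.42 with the block, not called without slide 1, at 0.36), and *Icam1* by 0.43 ± 0.10 (adjusted p 0.00490; 0.79, 0.10 and 0.41 within the slides, 0.44 with the block), which was 0.25 and not called without slide 1. Both of these overlapped between the hours. *Nos3* was higher by 0.29 ± 0.06 (adjusted p 2.73e-04; 0.28 with the block, 0.24 without slide 1, not called), and *Ramp2* lower (-0.26 ± 0.05, adjusted p 3.26e-04; -0.21, -0.26 and -0.23 within the slides, -0.25 with the block, -0.25 and not called without slide 1), the reverse of its difference in control animals.

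Also in treated animals, *Cldn5* was higher at the ninth hour by 0.27 ± 0.08 (adjusted p 0.0265; 0.35, 0.16 and 0.22 within slides 1, 2 and 3, 0.25 with slide as a block), where it was lower in control animals, but it was not called without slide 1, 2 or 3 (0.19, 0.32 and 0.27) and was called in 9 of 13 alternatives. *Abcb1a* was lower (-0.26 ± 0.08, adjusted p 0.0298; -0.18, -0.30 and -0.38 within the slides), not called without slide 1, 2 or 3 either (-0.34, -0.26 and -0.20) and called in 8 of 13 alternatives. The 2 mural genes called, named after their values were seen, were *Vtn*, which encodes vitronectin of pericytes, and *Higd1b*, a mitochondrial protein gene of pericytes. *Vtn* was higher at the ninth hour by 0.26 ± 0.06 (adjusted p 0.00541; 0.43, 0.06 and 0.26 within the slides; not called without slide 1, at 0.16, or slide 3, at 0.25) and *Higd1b* by 0.21 ± 0.07 (adjusted p 0.0442, not called without slide 1 or slide 2, at 0.15 and 0.15, or with slide as a block, 0.32 without slide 3, and called in 6 of 13 alternatives). The remaining calls, *Tek* (0.57 ± 0.11, adjusted p 2.31e-04; 0.44 without slide 3, not called) and *Bsg* (0.25 ± 0.08, adjusted p 0.0485, not called with slide as a block, at 0.23, or without slide 1, 2 or 3, at 0.24, 0.30 and 0.19, and called in 4 of 13 alternatives), were also chosen after their values were seen. The plot of both treatments sets these values side by side.

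**Figure D4:**
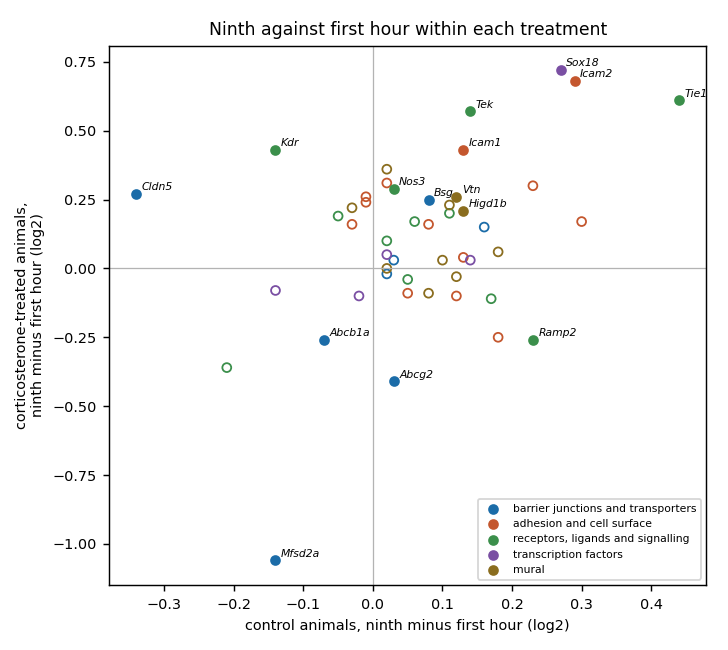
Log2 difference between the ninth and the first hour in control animals (horizontal) and in corticosterone-treated animals (vertical) for the 48 genes, coloured by role. Filled points with names passed limma's test in corticosterone-treated animals, and those that passed in control animals are among them. *Mfsd2a* lies at -0.14 and -1.06, *Tie1* at 0.44 and 0.61, and *Cldn5* at -0.34 and 0.27.

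Genes that act on or beside these cells were counted in lists by function, beside the 17.5%, 18.1% and 14.0% of all probes called at the first, the fifth and the ninth hour and the 0.827% called in the change of the effect. Of 21 ligands of the endothelial and mural receptors, 8 were called at the first hour (3 higher and 5 lower), 6 at the fifth and 1 at the ninth. *Apln*, the ligand of the apelin receptor on growing vessels, was lower on 8 of 8 arrays at the first hour (log2 fold change -0.62 ± 0.08, adjusted p 1.73e-07). *Adm*, adrenomedullin, the ligand of the receptor that *Ramp2* completes, was higher on 8 of 8 (0.80 ± 0.12, adjusted p 3.42e-07), as *Ramp2* was. The effect on *Vegfc*, a ligand of growth factor receptors, went from -0.38 ± 0.06 at the first hour (8 of 8 arrays lower, adjusted p 1.24e-05) to 0.09 at the ninth, a change of 0.47 ± 0.09 (adjusted p 9.74e-04). Of 24 other barrier junction and transport genes, 13 were called at the first hour (2 higher and 11 lower), 13 at the fifth and 3 at the ninth. *Slc2a1*, the glucose transporter of the barrier, was higher on 8 of 8 arrays at the first hour (0.92 ± 0.09, adjusted p 2.16e-10), and its effect had changed by -0.99 ± 0.13 at the ninth (adjusted p 1.20e-06), as that of *Mfsd2a* had fallen. *Slc16a1*, the lactate transporter, was lower on 8 of 8 arrays (-0.54 ± 0.06, adjusted p 3.39e-09), and so was *Alpl*, the alkaline phosphatase of capillaries (-0.87 ± 0.10, adjusted p 5.01e-09).

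Against the same shares of all probes (17.5%, 18.1% and 14.0%), of 19 inflammatory and coagulation genes of endothelium, 10 were called at the first hour (7 higher and 3 lower), 8 at the fifth and 6 at the ninth. *Nfkbia*, which encodes the inhibitor of NF-kappaB, went from 0.76 ± 0.08 on 8 of 8 arrays at the first hour (adjusted p 1.96e-10) to -0.27 ± 0.08 at the ninth, a change of -1.03 ± 0.11 (adjusted p 4.55e-09). *Lrg1*, a secreted glycoprotein of activated vessels, was higher on 8 of 8 arrays at the first hour (0.94 ± 0.11, adjusted p 3.10e-08), and *Hif3a*, a hypoxia-inducible factor subunit, on 7 of 8 (1.53 ± 0.23, adjusted p 1.93e-06). Of 7 reference genes of glucocorticoid response, 6 were called at the first hour, 4 at the fifth and 5 at the ninth, and the effect on all 7 changed from the first to the ninth. *Tsc22d3*, induced through the glucocorticoid receptor, went from 0.93 ± 0.10 (8 of 8 arrays higher, adjusted p 4.89e-10) to -0.58 ± 0.10 (8 of 8 lower, adjusted p 3.28e-05). *Sgk1*, a kinase gene induced in the same way, was at 0.71 ± 0.07 at the first hour (8 of 8 higher, adjusted p 1.25e-10) and not called at the fifth or the ninth. The receptor gene *Nr3c1* was lower on 8 of 8 arrays at the first hour (-0.54 ± 0.06, adjusted p 2.26e-10). Its effect had changed by 0.36 ± 0.08 at the ninth (adjusted p 0.00544).

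Markers of other cells were counted beside the vascular genes, and their part in the results was not tested. The shares of all probes called were 17.5%, 18.1% and 14.0% at the 3 hours. Of 6 markers each, 0, 3 and 2, all higher with corticosterone, were called for neurons at the first, the fifth and the ninth hour (2, 4 and 2 at an unadjusted p under 0.05 in limma), 2, 3 and 3 for astrocytes (1, 1 and 1 higher) and 3, 3 and 1 for microglia (0, 1 and 0 higher). Of *Mbp*, *Mag*, *Mobp*, *Mog* and *Cnp* of oligodendrocytes, a list shortened after its values were seen, 3 of 5 were called at each hour. These 5 are not to be read as the whole list, for which no counts, directions or summed signal are given. Of 4 markers of perivascular macrophages, which lie along the same vessels, 1, 0 and 0 were called (1, 1 and 2 unadjusted), and of 8 of perivascular and meningeal fibroblasts 0, 1 and 0 (5, 6 and 1 unadjusted), the called one being *Col3a1* at the fifth hour (-0.91 ± 0.19, adjusted p 4.60e-04, higher on 1 of 8 arrays), chosen after its value was seen. For choroid plexus, with 6 markers, and ependyma, with 4, the counts were 0 at each hour (0, 0 and 0 and 2, 2 and 1 unadjusted). Of 5 red blood cell markers measured, 0 were called at each hour, with 0, 4 and 0 unadjusted. Their summed signal, with *Hba-a1* the brightest, had a median of 53450 in control and 57233 in treated animals at the first hour, 49403 and 63017 at the fifth, and 51761 and 53771 at the ninth. In fibroblasts, with *Dcn* the brightest, the medians were 14310 and 14041, 15745 and 13382, and 15178 and 12989. Astrocytes, with *Slc1a3* the brightest, gave 30447 and 33440, 31489 and 32509, and 31046 and 30878, and microglia, with *Itgam* the brightest, 37577 and 39927, 38266 and 42320, and 39332 and 41633. The microglial sum was thus higher with corticosterone at each hour, whereas only 0, 1 and 0 of the 3, 3 and 1 called microglial markers were higher. Perivascular macrophages, with *F13a1* the brightest, gave 246 and 266, 275 and 244, and 261 and 230, and ependyma, with *Rsph1* the brightest, 437 and 384, 426 and 451, and 437 and 467. For neurons, with *Snap25* the brightest, they were 131963 and 131808, 127574 and 136183, and 133935 and 136757, and for choroid plexus, with *Kl* the brightest, 1396 and 1277, 1430 and 1384, and 1138 and 1179. From the first hour to the ninth, where the effect changed for 0.827% of all probes, it changed in limma for 0 markers of each of these cell types, lists too short to be set against the 7 of 48 vascular genes, with 2 astrocyte, 1 oligodendrocyte, 2 microglial, 2 macrophage and 1 ependymal marker at an unadjusted p under 0.05 and 0 for the other lists.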

How the data were processed

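The median spot intensity and local background of each dye were read from the deposited scanner files of the authors, per the file headers. They were corrected and normalized with limma 3.58.1 (R 4.3.3, statmod 1.5.0, data.table version 1.17.8): normexp (offset 50 where p-values were computed, offset 0 where fold changes, SE and signals were), loess within arrays with the 3671 control spots left out, and quantile normalization between arrays. Of 62976 spots per array, 80 to 276 carried the scanner's outlier mark and were set aside, copies were averaged, and a probe with missing spots was fitted on the remaining arrays. Of the 56605 probes, 34566 were named through RefSeq accessions of GRCm38.p6. All 24 arrays entered a separate-channel fit with 6 groups and an intraspot correlation of 0.279, and p-values were adjusted by Benjamini and Hochberg over all probes. The steps were tested on simulated data.

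Median signals per array were 90 to 107 in Cy3 and 136 to 185 in Cy5, over local backgrounds of 26 to 31 and 43 to 47. The authors also deposited a table of log2 ratios of Cy5 over Cy3, whose column medians were 0.0024 to 0.0089. Its scale and direction are not stated and were found by setting it against the scanner values: *Mfsd2a* at the first hour was 1.22 in it and 1.23 here.

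Genes given in full were those called in a change between hours, the 8 with the largest log2 fold change at each hour among those called, with the same direction on all 8 arrays and a mean signal of 50 or more, the 5 with the smallest adjusted p in each treatment between hours, and always *Cldn5*, *Pecam1*, *Cdh5*, *Icam1*, *Vcam1*, *Pdgfrb*, *Rgs5* and *Acta2*; from each list of other genes, the 3 called genes with the smallest adjusted p at the first hour. The 48 genes and the lists were chosen with earlier results of these data known. Alternatives were other offsets, no background correction, median centring, Aquantile, the scanner's processed signals, brighter probes only, limma on log ratios, a fit per hour, slide as a block, leaving out each slide, a variance trend, outlier spots kept, other probes of a gene, means within slides and the authors' table.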

Additional observations from a re-analysis of the deposited data

Results flagged for a closer look

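In 5 of 69 groups of 8 arrays the log2 ratio of a single array lay far from the other 7, where chance gives about 1 in 20 groups such a value. These were -0.19 for *Abcb1a* at the ninth hour, -0.41 for *Pecam1* and 0.36 for *Cdh5* at the fifth, -0.47 for *Cdh5* at the ninth and 0.68 for *Pdgfrb* at the fifth. A tested change of the corticosterone effect from the first hour to the ninth drew attention to *Cldn5* (0.60), *Abcg2* (-0.44), *Mfsd2a* (-0.93), *Ly6c1* (-0.43), *Kdr* (0.57), *Ramp2* (-0.49) and *Nos3* (0.25), and between the fifth and the ninth to *Mfsd2a* (-0.61).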

How the results depend on the processing

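Of 135 counts of genes called under the alternatives, 117 were within 1.5 times the reported count, and of 984 values of the 23 genes given in full, 41 kept the direction without passing, 4 newly passed, 8 changed sign and 4 means within a slide lay more than 1 SD from the reported value. The other 927 kept their direction and side of the threshold or, for means within a slide, lay within 1 SD. Among these last were 10 of the 42 means within a slide of values that had not passed, which also had the other sign (*Cdh5* 0.07 in slide 1 at the fifth and -0.18 in slide 3 at the ninth hour, *Icam1* -0.08 in slide 3 at the fifth, *Pdgfrb* 0.13 in slide 1 at the first and -0.03 in slide 2 at the fifth, *Acta2* -0.01 in slide 3 at the first, -0.16 and -0.02 in slides 1 and 2 at the fifth and 0.15 and 0.21 in slides 2 and 3 at the ninth). Leaving out a slide leaves fewer arrays, and with each slide left out fewer of all probes were called at each hour. Without slide 1 the counts were 9 at the fifth hour, 4 at the ninth, 3 and 0 for the change from the first and from the fifth to the ninth hour, and 0 and 7 between those hours in control and treated animals. Without slide 2 they were 2 for the change from the fifth hour and 1 in control animals, and without slide 3 they were 9 at the fifth hour, 8 at the ninth, 4 and 0 for the changes and 0 in control animals. With the scanner's processed signals, which shift the median of all probes by -0.14 and -0.12 between the hours in control and treated animals, 4 genes changed their effect from the first hour to the ninth, and 0 and 5 differed within the treatments; of the 7 changes reported, those of *Abcg2*, *Ly6c1* and *Nos3* were not called, and the cause was not tested. *Ramp2* was called in the change from the first to the fifth hour (1 gene) among brighter probes only, where fewer probes are tested, and also (1 gene) with slide as a block; the cause of the latter was not tested. Signs turned for *Pecam1* at the fifth hour within slide 2 (-0.01), *Cdh5* at the fifth without slide 3 (0.00) and at the ninth without slide 1 (-0.07), *Icam1* at the fifth without slide 2 (-0.02), *Pdgfrb* at the first without slide 3 (0.04) and at the fifth without slide 1 (-0.01), and *Acta2* at the fifth without slide 3 (-0.08) and at the ninth without slide 1 (0.18); the cause was not tested. Values near 0 that had not passed also moved in size without turning: *Icam1* was -0.03 at the first and 0.07 at the ninth hour without slide 1, *Pecam1* 0.23 at the ninth without slide 1, *Cdh5* -0.16 at the fifth without slide 1 and 0.18 at the ninth without slide 3, *Pdgfrb* -0.12 at the first without slide 1 and 0.15 at the fifth without slide 2, and *Acta2* 0.02 and 0.19 at the first without slides 2 and 3. Dim probes limit what can be read: *Clec14a*, with a mean signal of 38.6, was well above background on 4, 3 and 6 of the control and 7, 7 and 8 of the treated arrays at the first, the fifth and the ninth hour, and for *Vcam1*, *Kdr* and *Flt1* dimmer probes differed from the brightest.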

Other observations

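On the seventh array of the fifth hour, on slide 3, the signals of *Cdh5* (213 in control and 172 in treated), *Pdgfrb* (544 and 511) and *Tjp1* (800 and 703) were the lowest of their groups in both channels. This array also had the most spots with the scanner's outlier mark of the 24 arrays, 276. *Tjp1* had control signals of 2230 to 2792 on the other 7 arrays of that hour. Low *Tjp1* signals also occurred at the first hour, down to 1390 in control and 1242 in treated animals, beside medians of 2632 and 2571. These genes were chosen after their values were seen, and the cause was not tested.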
